A study of Mus musculus with 24 samples.

Results

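LAP B-ALL was set against LAP/Blnk preB-ALL in expression ratios of 17097 mouse genes. The tumours were taken by their titles, 4 LAP B-ALL and 3 LAP/Blnk preB-ALL, which are 7 of the 24 samples of the series. LAP B-ALL developed in mice with a transgene for LAP, which is an activating isoform made from Cebpb, the gene of C/EBPβ. LAP/Blnk preB-ALL developed in mice with the same LAP transgene that were also homozygous knockouts of Blnk. By their labels both groups therefore carry LAP. They differ both in the Blnk genotype and in the class of tumour given by the labels, B-ALL or preB-ALL, and these cannot be told apart. LAP preB-ALL (4 tumours, LAP transgene and no Blnk knockout) and Blnk preB-ALL (5 tumours, Blnk knockout and no transgene) entered the same fit. A cell line was measured on the other 8 arrays, which were not used in any comparison here. Neither the promoter that drives the transgene nor the tissue taken, the share of tumour cells, the strain, the age or the sex of the mice is stated in the sources used here. Whether every tumour is from a separate mouse is not stated either, and the tests therefore rest on the spread of these arrays alone, which may in part be technical.

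Precursor B cells display the pre-B-cell receptor, made of an immunoglobulin heavy chain, a surrogate light chain (encoded by Igll1 and the Vpreb genes) and the signalling pair Cd79a and Cd79b. Its signal runs through the kinases Syk and Btk and the adaptor BLNK, stops the surrogate light chain genes and lets cells leave the cycle and rearrange their light chain genes. Mice that lack BLNK accumulate pre-B cells and can develop preB-ALL. C/EBPβ is a factor of myeloid cells, where it drives inflammatory and differentiation genes.

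Every value below is a deposited log2 ratio to the median of the 16 tumours and not a level. Differences are LAP B-ALL minus LAP/Blnk preB-ALL, with the standard error (SE) of limma's moderated test, and a gene was called at an adjusted p under 0.05. Single tumours are given in the order 1 to 4 for LAP B-ALL and 1 to 3 for LAP/Blnk preB-ALL.

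The tumour labelled LAP B-ALL 4 stood apart from its group. LAP B-ALL 1, 2 and 3 correlated with each other at 0.81 to 0.84 over all probe sets, and with the fourth at -0.07, -0.04 and -0.08. The 3 LAP/Blnk tumours correlated with each other at 0.35 to 0.52. In 988 genes LAP B-ALL 1 to 3 all lay over 1 log2 unit to the same side of every LAP/Blnk tumour, and in 747 of these the fourth tumour was nearer to the LAP/Blnk mean than to that of LAP B-ALL 1 to 3. The median SD of a gene was 0.188 within LAP B-ALL, 0.133 without the fourth tumour, and 0.157 within LAP/Blnk tumours.

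Cebpb was read first as a check of the labels. The Cebpb probe set that varied most over the tumours read 0.29, 0.90, 0.14 and -3.11 in LAP B-ALL, against 0.51, -0.03 and 0.27 in LAP/Blnk tumours. It was between -4.50 and -1.94 in the 5 Blnk preB-ALL, which have no transgene. In LAP preB-ALL, which carry the transgene, it was at 0.03, -1.41, 0.05 and 0.19. The library labelled LAP B-ALL 4 thus goes against its label in this probe set. As LAP preB-ALL 2 was also low, the separation by transgene was not wide. Its difference between the groups was -0.69 with this library and 0.19 without it (exact permutation p = 0.857 with it). Of the other Cebpb probe sets, one differed by 1.68 (exact p = 0.114) and one by -0.31 (exact p = 0.0571, the smallest that 4 against 3 tumours allow). None of the 4 Cebpb and Blnk probe sets passed after adjustment (adjusted p of 0.228 to 0.857, exact permutation tests, two-sided). Blnk was at 0.93, -0.32, -0.53 and 0.85 in LAP B-ALL, against 0.42, 0.52 and 1.23 in the knockout LAP/Blnk tumours (difference -0.49, exact p = 0.457). The groups overlapped, and the probe set did not separate the genotypes. The sources used here do not place these probe sets within Cebpb or Blnk. Outside the deleted or introduced part a probe set would check no label.

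Values of the B-lineage genes Cd79a, Cd79b and Pax5 overlapped between the groups. Cd79a was at 0.44, 0.65, -0.50 and 0.23 in LAP B-ALL, against 0.37, 0.35 and 0.37 in LAP/Blnk tumours. Cd79b was at 0.14, 0.40, -0.46 and 0.95, against 0.12, -0.34 and 0.13. Pax5, the factor that keeps B cells committed, was at 0.00, -0.12, -0.67 and 0.54, against 0.04, 0.10 and 0.58 in LAP/Blnk tumours. As ratios have no true zero, they cannot show whether a marker was present or absent in all tumours. Igll1 was not analysed here.

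LAP B-ALL differed from LAP/Blnk preB-ALL in 602 of 17097 genes (3.52%), of which 225 were higher (1.32%) and 377 lower (2.21%). The groups did not overlap in 22.2% of all genes and in 601 of the 602 called ones. The median size of a called difference was 1.09 log2 units, and 134 genes were higher and 206 lower by at least 2-fold. Of the lower genes, 151 lay on chromosome 19, which is described with the other chromosomes. The split depended on the scaling: 386 genes were higher and 425 lower after quantile normalisation, and 306 and 334 with all array medians at 0. Without the library labelled LAP B-ALL 4 the fit called 1980 genes (11.6%), 1046 higher (6.12%) and 934 lower (5.46%), among them 601 of the 602. Leaving out any other tumour of the comparison cut the count, to 253, 274 and 268 without LAP B-ALL 1, 2 and 3 and to 249, 274 and 246 without LAP/Blnk 1, 2 and 3. Without LAP preB-ALL 4 it was 1055.

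The largest rise was that of Ms4a1, which encodes the B-cell surface protein CD20. It was at 3.68, 2.96, 3.06 and 1.85 in LAP B-ALL, against -4.69, -4.59 and -4.49 in LAP/Blnk tumours, a difference of 7.47 ± 1.88 (SE; adjusted p = 0.0446). The groups were over 6 log2 units apart, and LAP preB-ALL tumours averaged -0.68 ± 4.23 (SD, n = 4). Without the library labelled LAP B-ALL 4 the Ms4a1 difference was 7.82.

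The 12 largest rises also held Ly6d, Csprs, Rasgrp1 and Isg20. Rasgrp1, an exchange factor that activates Ras below the antigen receptors, was at 3.30, 3.63, 3.12 and 0.23, against -1.52, -1.87 and -1.96 in LAP/Blnk tumours (4.35 ± 0.99, 20.5-fold, adjusted p = 0.0318). Ly6d, a surface marker of B-committed progenitors that is also on plasmacytoid dendritic cells, was at 3.28, 3.17, 2.46 and 1.03, against -3.13, -2.55 and -2.28 (5.14 ± 1.27, adjusted p = 0.0432). Isg20, an interferon-induced exonuclease, was at 2.94, 3.07, 4.03 and -0.04, against -1.60, -1.71 and -1.76 (4.19 ± 1.00, adjusted p = 0.0394). In these 3 genes the fourth LAP B-ALL tumour was the lowest of its group and still above every LAP/Blnk tumour. Csprs rose by 4.90 ± 0.94 (adjusted p = 0.0137).

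Genes of myeloid and red cells made up the rest of the rises. Clec4n, which encodes the fungal receptor dectin-2 of macrophages, was at 2.22, 1.94, 1.97 and 0.01, against -2.27, -2.07 and -3.77 (4.24 ± 0.71, adjusted p = 0.0063). It alone of the 12 rises kept its call in all 26 alternative settings. Marco, a scavenger receptor of macrophages, was at 3.73, 4.04, 3.44 and 1.84, against -1.04, -3.05 and -2.86 (5.58 ± 1.27, adjusted p = 0.0318). Tlr1, a receptor for bacterial lipopeptides, rose by 4.15 ± 0.94, Pira1, a receptor of the paired immunoglobulin-like family, by 4.11 ± 0.89, and Cd5l, a secreted protein of macrophages, by 4.87 ± 1.25 (adjusted p of 0.0305, 0.0241 and 0.0477). Alas2, the first enzyme of haem synthesis in red cells, was at 5.87, 5.80, 6.65 and 2.14, against -0.38, -1.06 and -1.21 (6.0 ± 1.42, adjusted p = 0.0374). Hba-a1, an α-globin gene with a near-identical copy whose signal cannot be told apart, was at 4.85, 4.87, 5.42 and 2.55, against -1.03, -1.17 and -1.85 (5.77 ± 1.42, adjusted p = 0.0423). The calls of Ms4a1, Alas2, Hba-a1, Marco, Ly6d, Cd5l, Rasgrp1, Isg20, Tlr1 and Pira1 were lost when any 1 of LAP B-ALL 1, 2 or 3 or of the LAP/Blnk tumours was left out, and that of Csprs without LAP/Blnk 1 or 2. Single Blnk preB-ALL tumours decided those of Ms4a1, Alas2, Hba-a1, Ly6d, Cd5l and Isg20 too, and LAP preB-ALL 1 and 3 that of Cd5l. Quantile normalisation ended the calls of Ms4a1, Ly6d and Cd5l, and the mean of all probe sets those of Ms4a1, Hba-a1 and Cd5l. A variance trend ended that of Alas2, and the fit of only 7 tumours those of Cd5l, Isg20 and Pira1. In the trend fit limma's prior variance reached 6.24e+07, against 0.037 in the main fit, which limits what that setting can show. A robust variance model ended the call of Cd5l too. With the replicate block only Clec4n and Csprs kept theirs. Over all settings the differences of the 12 genes stayed between 3.13 (Rasgrp1) and 7.82 (Ms4a1).

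**Figure D1:**
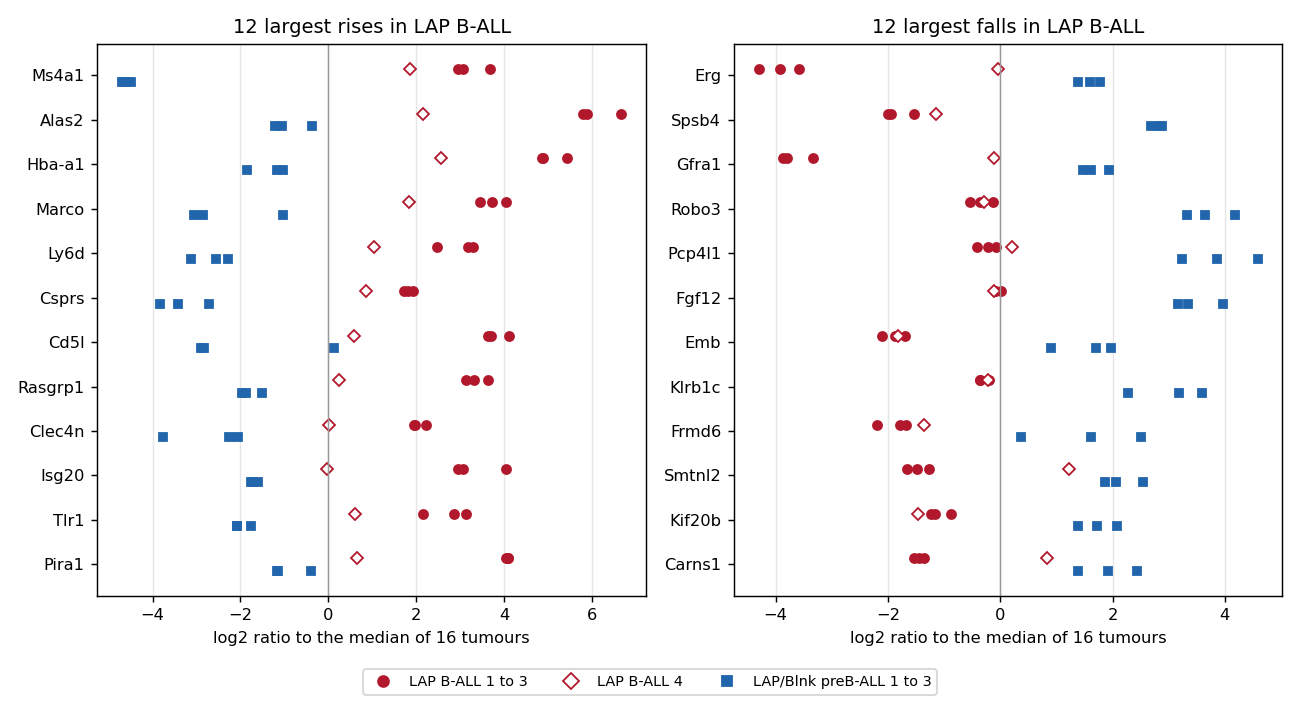
Log2 ratios to the median of 16 tumours for the 12 largest rises (left) and the 12 largest falls (right) past the threshold, 1 point per tumour: LAP B-ALL 1 to 3 as filled circles, LAP B-ALL 4 as an open diamond and LAP/Blnk preB-ALL as squares. The groups do not overlap in any of these genes, and LAP B-ALL 4 is the lowest of its group in the 12 rises, at 0.01 for Clec4n and 1.85 for Ms4a1.

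The largest falls were those of Erg, Spsb4 and Gfra1. Erg, an ETS factor of stem cells and early B-cell development, was at -3.59, -4.30, -3.92 and -0.04 in LAP B-ALL, against 1.61, 1.38 and 1.78 in LAP/Blnk tumours (-4.55 ± 1.14, adjusted p = 0.0442). Its call was lost when any 1 of LAP B-ALL 1, 2 or 3, any LAP/Blnk tumour or any Blnk preB-ALL tumour was left out. The fit of only 7 tumours and the replicate block ended it too, with differences between -5.52 and -4.05 over all settings. Spsb4, of the SOCS-box proteins that serve ubiquitin ligases, was at -1.53, -2.0, -1.94 and -1.15, against 2.88, 2.68 and 2.82 (-4.45 ± 0.41, adjusted p = 0.000308). Here the tumours of a group lay within 1 log2 unit of each other and the groups nearly 4 units apart. Blnk preB-ALL averaged 1.49 in Spsb4 and LAP preB-ALL -1.45.

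Gfra1, the receptor of the growth factor GDNF, was at -3.34, -3.86, -3.79 and -0.10, against 1.47, 1.93 and 1.62 (-4.45 ± 0.79, adjusted p = 0.00877). Robo3, an axon guidance receptor, was at -0.37, -0.55, -0.13 and -0.28, against 3.65, 4.18 and 3.33 (-4.05 ± 0.55, adjusted p = 0.00237). Fgf12, a growth factor homologue that stays in the cell, was at -0.09, -0.10, 0.01 and -0.12, against 3.16, 3.35 and 3.97 (-3.57 ± 0.43, adjusted p = 0.0015). In Robo3, Fgf12 and Pcp4l1 all 4 tumours labelled LAP B-ALL were close to the median of all tumours, and it was the LAP/Blnk tumours that lay far from it. Means of these genes were 0.47, -0.05 and 1.60 in Blnk preB-ALL and 0.54, 0.79 and -0.15 in LAP preB-ALL. High Pcp4l1 was thus not limited to LAP/Blnk tumours. For Robo3 and Fgf12 the SDs within LAP preB-ALL were 1.36 and 1.135 (n = 4). Their means thus do not show that high values were limited to LAP/Blnk tumours. Pcp4l1 was at 3.86, 3.23 and 4.58 in LAP/Blnk tumours (-4.02 ± 0.68, adjusted p = 0.00681). Spsb4, Gfra1, Robo3, Pcp4l1 and Fgf12 kept their calls in all 26 alternative settings.

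Emb, the adhesion protein embigin, fell by 3.40 ± 0.83, and Klrb1c, the NK1.1 receptor of NK cells, by 3.30 ± 0.68 (adjusted p of 0.0415 and 0.0197). Frmd6, a protein of the Hippo pathway, fell by 3.25 ± 0.67, Smtnl2 by 2.95 ± 0.75 and Carns1, carnosine synthase, by 2.79 ± 0.65 (adjusted p of 0.0197, 0.0462 and 0.0354). Each of these 5 calls was lost when LAP B-ALL 1 or 2 or LAP/Blnk 1 or 2 was left out, with differences between -3.90 (Klrb1c) and -1.91 (Emb) over all settings. Single Blnk preB-ALL tumours decided those of Emb and Smtnl2 too, and LAP preB-ALL 1 and 3 that of Smtnl2. The fit of only 7 tumours ended those of Smtnl2 and Carns1, and the replicate block those of Emb, Klrb1c and Smtnl2. The 3 smallest p-values belonged to Kif20b, Spsb4 and Papola. Kif20b, a kinesin of the last steps of cell division, was at -1.24, -0.87, -1.15 and -1.46, against 1.72, 1.39 and 2.07 (-2.91 ± 0.26, adjusted p = 0.000308). Papola, the main poly(A) polymerase, was at -0.64, -0.51, -0.63 and -0.72, against 0.74, 0.63 and 0.50 (-1.25 ± 0.12, adjusted p = 0.000527). It kept its call in every setting, with differences between -1.35 and -0.67. In Kif20b and Papola LAP B-ALL 4 lay with its own group.

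The Vpreb genes, Rag1 and Rag2 lay far lower in LAP B-ALL 1 to 3 than in the library labelled LAP B-ALL 4. Vpreb1, of the surrogate light chain, was at -8.84, -8.78, -8.97 and 0.14, against 0.35, 0.30 and 0.22 in LAP/Blnk tumours (-6.90 ± 2.41, adjusted p = 0.115). Its near-identical copy Vpreb2, whose signal may not be separate, was at -7.94, -8.40, -8.24 and 0.35, against 0.66, 0.48 and 0.23 (-6.52 ± 2.29, adjusted p = 0.116). Vpreb3 was at -5.27, -4.35, -6.54 and 0.88, against 0.57, 0.37 and 0.55 (-4.32 ± 1.47, adjusted p = 0.108). LAP B-ALL 1, 2 and 3 were far below every LAP/Blnk tumour in all 3 genes and the fourth tumour was among or next to the LAP/Blnk tumours. Without that library the differences were -9.15, -8.65 and -5.88 (adjusted p of 0.0132, 0.0137 and 0.00659).

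Rag1 and Rag2 encode the recombinase that assembles immunoglobulin genes. Rag1 was at -6.13, -6.62, -6.11 and 2.00 in LAP B-ALL, against 1.18, 0.08 and 2.17 in LAP/Blnk tumours (-5.36 ± 1.80, adjusted p = 0.104). Rag2 was at -3.91, -3.99, -3.79 and 2.13, against 1.42, 0.97 and 2.25 (-3.94 ± 1.29, adjusted p = 0.0979). Both groups overlapped through LAP B-ALL 4 alone, and without it the differences were -7.43 and -5.44 (adjusted p of 0.00314 and 0.00235). Dntt, the terminal transferase of pro-B cells, was at -0.67, -0.60, -0.11 and -0.48, against -0.04, 1.31 and 3.36, and did not pass (adjusted p = 0.341).

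Of 22 measured genes of the pre-B receptor and its signalling, 1 rose and none fell, where 1.32% of all genes rose and 2.21% fell. The median difference was 0.12, against -0.01 over all genes. An unadjusted p under 0.05 was found in 9, against 3769 of all 17097 genes. The riser was Malt1, a protease of the antigen receptor signal to NF-kB, at 1.64, 1.63, 0.77 and 0.52, against -0.60, -0.56 and -0.61 (1.73 ± 0.37, adjusted p = 0.021). Its call was lost without LAP B-ALL 1 or 2 or any LAP/Blnk tumour, with differences of 1.56 to 1.94. With LAP B-ALL 4 left out, 2 genes rose (Blk and Malt1) and 4 fell (Btk and the Vpreb genes). Over all genes 6.12% rose and 5.46% fell in that fit. Blk, a Src kinase of B cells, was at 3.20, 3.36, 2.79 and 2.36, against -0.42, -0.74 and -0.15, with an adjusted p of 0.0697 with that library and 0.0474 without it. Blk was named after its values were seen, as were Cd83, Csf1r and Klf1 further on. Of 16 measured genes of recombination and early pro-B cells, none was called by limma and 5 had an unadjusted p under 0.05, all lower. After removal of LAP B-ALL 4 it called 4 of them, Lef1, Rag1, Rag2 and Sox4, all lower, where 5.46% of all genes were lower.

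**Figure D2:**
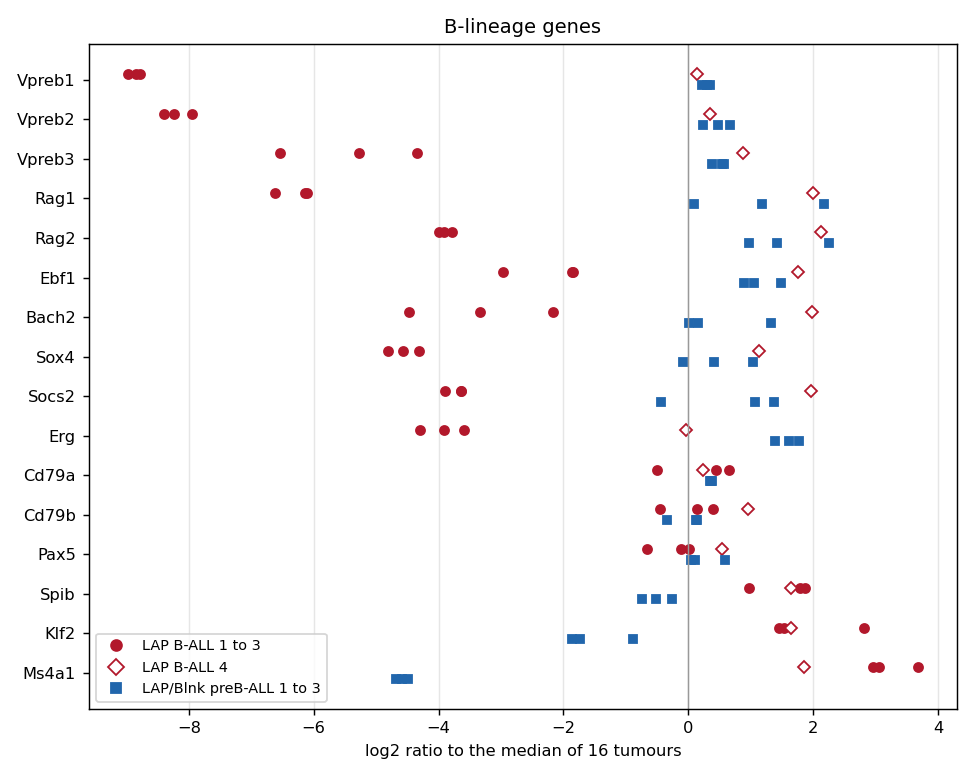
Log2 ratios to the median of 16 tumours for B-lineage genes, 1 point per tumour: LAP B-ALL 1 to 3 as filled circles, LAP B-ALL 4 as an open diamond and LAP/Blnk preB-ALL as squares. LAP B-ALL 1 to 3 lie at -8.97 to -8.78 for Vpreb1, while LAP B-ALL 4 lies beside the LAP/Blnk tumours from Vpreb1 down to Socs2 and with its own group in Spib, Klf2 and Ms4a1.

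The factors Ebf1 and Bach2 were also low in LAP B-ALL 1 to 3 and not in the fourth tumour. Ebf1, which specifies B cells, was at -1.87, -1.85, -2.97 and 1.76, against 1.05, 0.90 and 1.49 in LAP/Blnk tumours (adjusted p = 0.178, and 0.016 without LAP B-ALL 4). Bach2, a repressor that holds back plasma cell fate, was at -3.33, -4.47, -2.17 and 1.98, against 0.01, 0.16 and 1.32 (adjusted p = 0.265, and 0.0197 without that library). In both genes the fourth tumour was the highest of all 7. Spib, an ETS factor of mature B cells, was at 1.78, 1.87, 0.98 and 1.64, against -0.51, -0.26 and -0.73, and its difference of 2.07 ± 0.72 did not pass (adjusted p = 0.113). Of 31 factors 1 fell, Erg, which is near the 2.21% of all genes that were lower. An unadjusted p under 0.05 was found in 13, against 3769 of all 17097 genes, and the median difference was -0.30. Leaving out LAP B-ALL 4, 3 rose (Id2, Lmo2 and Pou2f2) and 7 fell (Bach2, Ebf1, Elf1, Erg, Myb, Runx1 and Tcf12). Over all genes 6.12% rose and 5.46% fell in that fit.

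Irf4 and Irf8, factors of pre-B differentiation, differed by -0.31 ± 0.56 and 0.95 ± 0.55 (adjusted p of 0.804 and 0.339). Spi1, Bcl6 and Id3 differed by 0.50 ± 0.20, 0.58 ± 1.14 and -0.26 ± 0.46 (adjusted p of 0.156, 0.825 and 0.799). Id2, an inhibitor of E proteins, was at 1.44, 1.17, 1.91 and -0.25, against -0.07, -0.69 and -1.46 (adjusted p = 0.108, and 0.028 without LAP B-ALL 4). Cd79b differed by 0.29 ± 0.33 (adjusted p = 0.668).

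Klf2, a factor of quiescent and recirculating lymphocytes, rose in LAP B-ALL. It was at 1.46, 2.82, 1.54 and 1.64, against -0.89, -1.87 and -1.74 in LAP/Blnk tumours (3.36 ± 0.64, 10.3-fold, adjusted p = 0.0128, and 0.0106 without the library labelled LAP B-ALL 4). The call was lost without LAP/Blnk 2 or 3, with differences of 3.04 to 3.67 over all settings. It was the only call among 14 measured Klf and homing genes, where 1.32% of all genes rose, and their median difference was 0.38. Cd44, Cxcr3 and Klf2 rose without LAP B-ALL 4, where 6.12% of all genes rose.

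Mature B-cell genes lay mostly above LAP/Blnk tumours, with a median difference of 1.18 over 30 genes and 25 of them positive. Only Ms4a1 was called, where 1.32% of all genes rose. A further 11 genes had an unadjusted p under 0.05 and a positive difference. Over all genes such a p was found in 3769 of 17097, in either direction. Cd22, a coreceptor of the B-cell receptor, was at 1.37, 1.31, 0.04 and -0.04, against -0.50, -1.72 and -0.65 (1.63 ± 0.89, adjusted p = 0.305). Cd83, an activation marker, was at 4.91, 3.89, 4.13 and 0.32, against 0.01, -0.53 and -0.19 (3.55 ± 1.36, adjusted p = 0.147). In the fit without LAP B-ALL 4, the 7 genes Bcl2a1a, Cd83, Cd86, Gpr183, Il4ra, Ms4a1 and Zbtb32 rose, where 6.12% of all genes rose.

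Genes of MHC class II presentation rose in part. Class II molecules present peptides to helper T cells, Cd74 is the invariant chain that guards their groove, H2-DM loads the peptide, and Ciita is the coactivator that switches the genes on. Their promoters share an X box and a Y box, bound by RFX and NF-Y. Of 17 measured genes, 4 rose and none fell, where 1.32% of all genes rose, and without LAP B-ALL 4, 9 rose and none fell, where 6.12% of all genes rose. The median difference was 1.61 and 15 of 17 were positive, against a median of -0.01 over all genes.

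Promoters of 3 class II genes on mouse chromosome 17 are shown because the core letters of both boxes stand in them in the same order: both H2-DMb genes, which were called, and H2-Eb1, which was not. Each sequence is the 250 bases before the gene's start, from RefSeq's GRCm38.p6, plus strand, 5′ to 3′, with capitals on matches to GATGATG (X box core) and ATTGG (Y box core), both searched on both strands.
H2-DMb1: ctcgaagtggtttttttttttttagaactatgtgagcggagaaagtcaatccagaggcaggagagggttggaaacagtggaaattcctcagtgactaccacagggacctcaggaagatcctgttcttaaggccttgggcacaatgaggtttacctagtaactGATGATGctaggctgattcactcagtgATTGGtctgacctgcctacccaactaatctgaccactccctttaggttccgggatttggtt
H2-DMb2: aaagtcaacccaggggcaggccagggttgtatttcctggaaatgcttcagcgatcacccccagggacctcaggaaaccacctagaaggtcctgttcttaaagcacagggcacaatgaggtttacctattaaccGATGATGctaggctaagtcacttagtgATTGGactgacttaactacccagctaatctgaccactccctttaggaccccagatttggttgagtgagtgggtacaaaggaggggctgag
H2-Eb1: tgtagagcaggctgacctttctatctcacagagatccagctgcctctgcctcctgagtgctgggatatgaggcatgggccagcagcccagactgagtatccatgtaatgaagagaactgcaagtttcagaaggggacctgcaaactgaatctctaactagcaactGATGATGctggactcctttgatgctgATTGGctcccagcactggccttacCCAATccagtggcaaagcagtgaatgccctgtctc
These windows are chr17:34152941-34153190, chr17:34144999-34145248 and chr17:34305617-34305866. The X box core ends 20 bases before the next Y box core in both H2-DMb genes and 19 bases before it in H2-Eb1. These letters were chosen after the sequences were read, and the 2 matches do not overlap each other. The X box core is found in 2.92% of 32851 promoter windows of the same length, the Y box core in 33.8%, and both in 1.03%. Of 13 genes of the list with a window, 3 hold the X box core and 11 the Y box core. A match is a description of the letters and not a bound site.

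H2-DMb2 was at 2.28, 1.51, 2.83 and 0.03 in LAP B-ALL, against -2.07, -1.96 and -2.24 in LAP/Blnk tumours (3.75 ± 0.94, 13.5-fold, adjusted p = 0.0442). H2-DMb1 was at 2.32, 2.39, 3.00 and 0.37, against -1.07, -1.03 and -1.12 (3.10 ± 0.69, adjusted p = 0.0278). The pair are close copies, so part of the signal may be shared. Cd74 was at 2.92, 2.34, 3.13 and 1.30, against -0.77, -1.27 and -1.71 (3.67 ± 0.87, adjusted p = 0.0373). Ctss, the protease that cuts the invariant chain, rose by 1.38 ± 0.34 (adjusted p = 0.0415). In these 4 genes every tumour labelled LAP B-ALL was above every LAP/Blnk tumour. Their calls were lost when any 1 of LAP B-ALL 1, 2 or 3 or of the LAP/Blnk tumours was left out, and their differences stayed between 1.24 (Ctss) and 4.30 (H2-DMb2). Single Blnk preB-ALL tumours decided the calls of H2-DMb2, Cd74 and Ctss too, and LAP preB-ALL 1 that of H2-DMb2. The replicate block ended all 4 calls.

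The class II chains themselves followed LAP B-ALL 1 to 3. H2-Aa was at 3.29, 3.10, 4.09 and -0.10, against -0.34, -0.47 and -0.40 (3.00 ± 1.25, adjusted p = 0.177, and 0.0512 without LAP B-ALL 4). H2-Ab1 was at 1.94, 1.98, 3.01 and 0.00, against 0.00, -0.47 and -0.98 (adjusted p = 0.152, and 0.0493 without it). H2-Eb1 was at 2.81, 2.57, 3.52 and -0.22, against -0.13, -0.65 and -1.12 (adjusted p = 0.144, and 0.0363 without it). Ciita was at 2.59, 1.96, 3.49 and -0.10, against -0.01, -0.34 and -0.31 (adjusted p = 0.174, and 0.0428 without it). H2-DMa differed by 3.24 ± 0.87 (adjusted p = 0.0571). In the class II chains and Ciita the fourth tumour was near the LAP/Blnk tumours, unlike in Cd74. H2-Eb1 and H2-DMa were named after their values were seen.

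**Figure D3:**
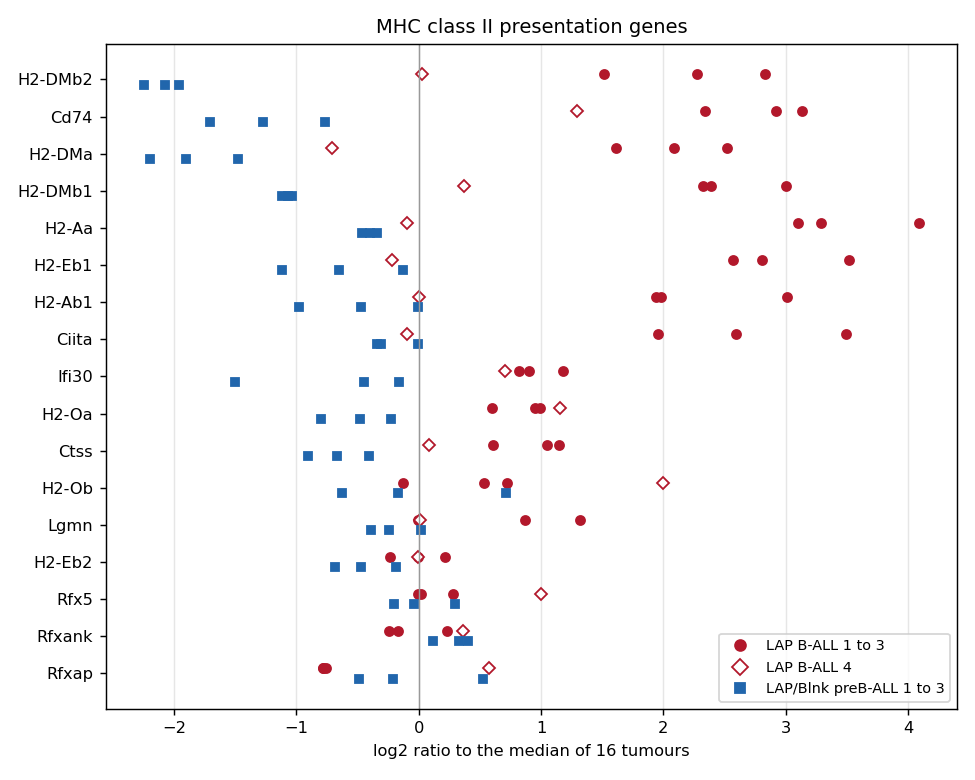
Log2 ratios to the median of 16 tumours for the 17 measured genes of MHC class II presentation, 1 point per tumour: LAP B-ALL 1 to 3 as filled circles, LAP B-ALL 4 as an open diamond and LAP/Blnk preB-ALL as squares. LAP B-ALL 1 to 3 lie above all LAP/Blnk tumours from H2-DMb2 down to Ctss, while the RFX genes at the bottom overlap.

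Macrophages and dendritic cells carry class II genes too, and markers of macrophages were higher in part. Monocyte and macrophage markers had list medians of 1.06, 0.84, 1.85 and 0.11 in LAP B-ALL, against -0.57, -0.59 and -0.79 in LAP/Blnk tumours. All 20 measured markers had a positive difference (median 1.66), and 3 rose, Ctss, Marco and Spic, where 1.32% of all genes rose. Spic, a factor of red-pulp macrophages, was at 2.21, 1.40, 3.21 and 0.44, against -1.71, -1.22 and -2.53 (3.63 ± 0.93, adjusted p = 0.0477). Its call was lost without any 1 of LAP B-ALL 1, 2 or 3 or of the LAP/Blnk tumours (3.04 to 4.09 over all settings). Leaving out LAP preB-ALL 1 or Blnk preB-ALL 1, 3, 4 or 5 ended it too. So did the mean of all probe sets, a robust variance model and the replicate block. The macrophage receptor gene Csf1r was at 1.76, 1.03, 2.38 and -0.07, against -0.59, -1.03 and -1.52 (adjusted p = 0.0582), while Lyz2 was at 0.25, -0.48, 0.05 and 0.24, against -0.11, -0.31 and -0.31 (adjusted p = 0.825). The part of macrophages in the changes of class II, interferon and other genes was not tested. In bulk RNA fewer cells of a type and less RNA per cell cannot be told apart.

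Erythroid and platelet markers stood furthest from LAP/Blnk tumours of any list. Their medians were 4.84, 4.87, 5.42 and 0.12 in LAP B-ALL, against -0.38, -0.18 and -0.32. Of 15 measured markers 2 rose, Alas2 and Hba-a1, where 1.32% of all genes rose, and the median difference was 4.48. Without LAP B-ALL 4 there were 10, where 6.12% of all genes rose. Klf1, the master factor of red cells, was at 5.32, 5.45, 6.54 and 0.01, against -0.52, -0.23 and -0.32 (4.69 ± 1.51, adjusted p = 0.094). LAP B-ALL 1 to 3 thus lay over 4 log2 units above LAP/Blnk tumours in this list, as did LAP preB-ALL 4, whose median was 4.91 in a group otherwise at -0.40, -0.21 and -0.06.

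Granulocyte markers gave no call by limma among 17 measured genes. An unadjusted p under 0.05 was found in 6, against 3769 of all 17097 genes. All 17 markers had a positive difference, with a median of 1.63. Their list medians were 1.08, 1.42, 1.08 and 1.98 in LAP B-ALL, against 0.43, -0.60 and -0.70. S100a9 was at 2.81, 2.80, 2.84 and 3.67, against 2.21, -1.71 and -3.59 (adjusted p = 0.201), and S100a8 at 2.90, 2.92, 2.95 and 3.85, against 2.40, -1.66 and -3.14. LAP/Blnk 1 lay closer to LAP B-ALL than to the other LAP/Blnk tumours in these genes. T-cell markers had medians of 0.63, 0.58, 1.36 and -0.04, against -0.08, -0.33 and -0.41. Of 18 T-cell markers none rose and Ubash3a fell (-1.24 ± 0.29, adjusted p = 0.0378), where 2.21% of all genes fell. Its call was lost without LAP B-ALL 1, 2 or 3, LAP/Blnk 2 or 3 or Blnk preB-ALL 4 (-1.55 to -0.84 over all settings). The fit of only 7 tumours and the replicate block ended it too. Cd3g was at 3.74, 2.59, 4.25 and 0.18, against -0.18, -1.19 and -0.74 (adjusted p = 0.127).

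Of 11 NK-cell genes Klrb1c fell, where 2.21% of all genes fell. Gzmb, a granule protease, was at 4.14, 2.94, 5.15 and -0.31, against -0.06, -0.58 and -0.50 (adjusted p = 0.174). Of 9 dendritic-cell genes Ly6d rose, where 1.32% of all genes rose. Of 18 genes of stroma and endothelium none was called by limma, with a median difference of -0.51. An unadjusted p under 0.05 was found in 3 of them, against 3769 of all 17097 genes. No level is known, so whether a defining marker was at 0 in any tumour cannot be read, and the part of each of these cell types in the other results was not tested.

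**Figure D4:**
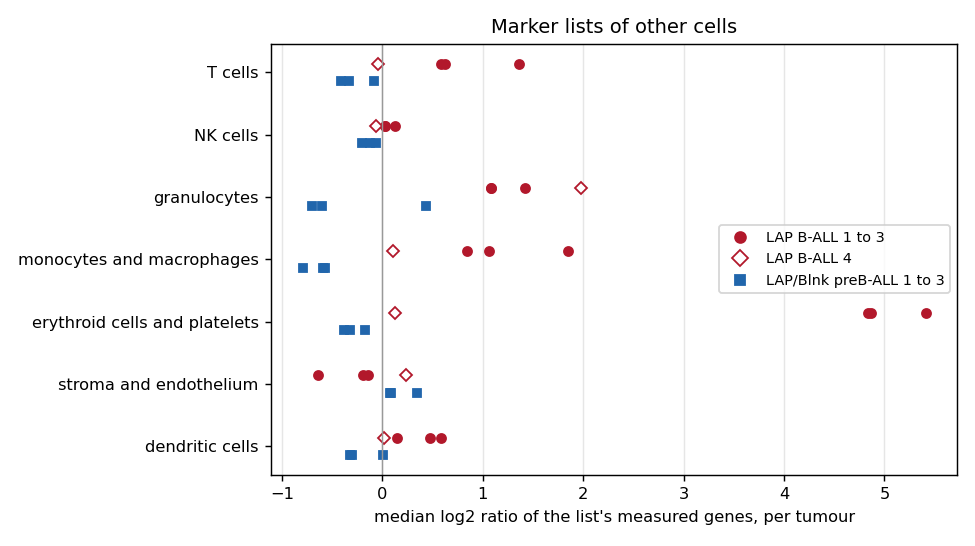
Median log2 ratio of the measured genes of each marker list of other cells, 1 point per tumour: LAP B-ALL 1 to 3 as filled circles, LAP B-ALL 4 as an open diamond and LAP/Blnk preB-ALL as squares. Erythroid medians are 4.84 to 5.42 in LAP B-ALL 1 to 3, 0.12 in LAP B-ALL 4 and below 0 in LAP/Blnk tumours.

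Genes with C/EBP sites and of the C/EBP family gave 1 rise among 30 measured genes, where 1.32% of all genes rose. Cyba, a subunit of the phagocyte oxidase, was at 1.13, 1.03, 0.80 and 0.10, against -0.09, -0.41 and -0.70 (1.17 ± 0.30, adjusted p = 0.0496), and 16 of 26 alternatives ended the call, the removal of any tumour of either group but LAP B-ALL 4 among them (1.02 to 1.39). The list's median was 0.70, and 24 of 30 differences were positive. Chil3 and Lcn2, secreted proteins of myeloid cells, differed by 3.18 ± 1.69 and 2.96 ± 1.48 (adjusted p of 0.289 and 0.26). Ccl3, Ccl4, Csf1r, Csf3r, Cyba and Il1b rose without LAP B-ALL 4, where 6.12% of all genes rose.

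Of 24 type I interferon response genes 3 rose, where 1.32% of all genes rose, and none fell. The median difference was 1.20, and 22 were positive. Zbp1, a sensor of nucleic acids, was at 1.73, 1.24, 1.43 and 0.13, against -0.96, -0.90 and -1.42 (2.23 ± 0.56, adjusted p = 0.0442). Dhx58, a helicase that tunes RIG-I signalling, was at -0.32, 0.15, -0.02 and 0.48, against -1.52, -1.58 and -1.17 (1.49 ± 0.37, adjusted p = 0.0435), and Isg20 was the third. In Dhx58 it was the LAP/Blnk tumours that lay away from the tumour median.

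The interferon-inducible GTPases, which attack vacuoles that hold pathogens, had a median difference of 2.42 over 11 genes. Irgm2 was at 1.48, 1.08, 2.16 and 0.24, against -0.84, -1.29 and -1.42 (2.42 ± 0.62, adjusted p = 0.0467). Ifi47 was at 0.64, 0.50, 1.52 and -0.64, against -1.72, -1.74 and -1.47 (2.15 ± 0.54, adjusted p = 0.0454). No other member was called, where 1.32% of all genes rose. Without LAP B-ALL 4, where 6.12% of all genes rose, there were 8 rises, Gbp2, Gbp3, Gbp8, Igtp, Iigp1 and Tgtp1 being the further ones. The calls of Zbp1, Dhx58, Irgm2 and Ifi47 were each lost when any 1 of LAP B-ALL 1, 2 or 3 or of the LAP/Blnk tumours was left out, with differences between 1.00 (Dhx58) and 2.76 (Irgm2). Single Blnk preB-ALL tumours decided each of these calls too, and LAP preB-ALL 1 those of Zbp1, Irgm2 and Ifi47. The replicate block ended them all, the fit of only 7 tumours that of Ifi47, and the mean of all probe sets that of Irgm2.

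In the NF-kB pathway 1 of 22 genes rose and 1 fell, where 1.32% of all genes rose and 2.21% fell, and 19 differences were positive, with a median of 0.71. Bcl3, a nuclear partner of NF-kB, was at 2.09, 0.89, 1.51 and 0.19, against -1.51, -1.80 and -1.83 (2.88 ± 0.64, adjusted p = 0.0285). Rela, the activating subunit, was at -0.17, 0.07, -0.06 and -0.57, against 0.42, 0.43 and 1.07 (-0.82 ± 0.21, adjusted p = 0.0453), and it lies on chromosome 19. Both calls were lost when any 1 of LAP B-ALL 1, 2 or 3 or of the LAP/Blnk tumours was left out (2.58 to 3.21 for Bcl3, -0.95 to -0.61 for Rela), and that of Rela also with array medians at 0. Leaving out LAP preB-ALL 1 or Blnk preB-ALL 1, 3, 4 or 5 ended that of Rela too. So did the fit of only 7 tumours and the replicate block.

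Of 33 S phase and mitosis genes none rose and 4 fell, where 2.21% of all genes fell, with a median difference of -0.27. Kif11, the spindle motor Eg5, was at -0.33, -0.28, -0.20 and -0.92, against 1.40, 1.26 and 1.49 (-1.82 ± 0.25, adjusted p = 0.00237), and it too lies on chromosome 19. The checkpoint genes Bub1b and Ttk fell by 1.03 ± 0.22 and 0.72 ± 0.15, and Cdc20, the activator of the anaphase-promoting complex, by 0.77 ± 0.15 (adjusted p of 0.0223, 0.0197 and 0.0144). Bub1b was at -0.62, -1.02, -1.17 and -0.83, against 0.26, 0.06 and 0.03. None of the 6 Mcm helicase genes was called, nor were Mki67 (-0.27) or Top2a (-0.57). The same 4 genes were called without LAP B-ALL 4. The calls of Bub1b and Ttk were lost without LAP B-ALL 2 or 3 or LAP/Blnk 1 or 2 (-1.12 to -0.71 and -0.84 to -0.58 over all settings), Bub1b also without LAP/Blnk 3, and that of Cdc20 without LAP/Blnk 1 (-0.88 to -0.65). The replicate block ended that of Bub1b too. The fit of only 7 tumours and the mean of all probe sets ended that of Ttk.

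G1 cyclins gave no call by limma among 22 genes (6 at an unadjusted p under 0.05, against 3769 of all 17097 genes). Ccnd2 was at -0.29, 0.18, 0.99 and 2.24, against -2.41, -2.75 and -2.94 (3.48 ± 0.98, adjusted p = 0.0661). Ccnd3, the cyclin of proliferating pre-B cells, was at -1.05, -0.65, -0.02 and 1.71, against 1.53, 1.13 and 1.02 (adjusted p = 0.228, and 0.0225 without LAP B-ALL 4). Ccnd2 lay above all LAP/Blnk tumours in LAP B-ALL 1 to 3 and was highest in the library labelled LAP B-ALL 4. Ccnd3 lay below all LAP/Blnk tumours in LAP B-ALL 1 to 3. Myc differed by 0.19 ± 0.86 (adjusted p = 0.935).

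In the Bcl2 family 2 of 16 genes fell, where 2.21% of all genes fell, and none rose. Bad, which promotes cell death, was at -0.25, -0.26, -0.29 and -0.36, against 0.68, 0.92 and 1.32 (-1.26 ± 0.21, adjusted p = 0.00681). It lies on chromosome 19 and kept its call in all 26 alternative settings. Bok, a relative of Bax, was at -1.22, -0.90, -1.17 and -1.34, against 1.83, 0.66 and 0.45 (-2.14 ± 0.49, adjusted p = 0.032). Its call was lost when any 1 of LAP B-ALL 1, 2 or 3 or of the LAP/Blnk tumours was left out (-2.41 to -1.71). The replicate block ended it too. Bcl2a1a, a target of NF-kB that protects activated B cells, was at 3.23, 2.80, 3.03 and -0.25, against -0.64, -1.86 and -2.29 (3.80 ± 1.00, adjusted p = 0.0524).

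Metabolic lists held single calls, where 2.21% of all genes fell. Psat1, an enzyme of serine synthesis, was at -0.88, -1.59, -2.34 and -0.28, against 0.82, 0.84 and 1.44 (-2.31 ± 0.44, adjusted p = 0.0134). It was 1 of 18 genes of the ATF4 amino-acid list and lies on chromosome 19. Without LAP/Blnk 3 its call was lost (-2.64 to -1.95 over all settings). Stard4, a carrier of cholesterol, was at -0.60, -0.32, -0.44 and -0.31, against 0.63, 0.66 and 0.80 (-1.11 ± 0.15, adjusted p = 0.00237), and was 1 of 19 genes of sterol and fatty acid synthesis. Asns, on the first list, differed by 1.46 ± 0.87, and Scd1, on the second, by 2.51 ± 0.86 (adjusted p of 0.347 and 0.109).

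No gene was called by limma in 11 of the 24 process lists, which held 204 measured entries, 56 of them at an unadjusted p under 0.05, against 3769 of all 17097 genes. Those not yet described were IL-7 receptor and STAT5 response (median difference 0.46), Myc and ribosome biogenesis (-0.04), Trp53 response (-0.04), Gimap GTPases (0.14), immediate early genes (0.68), plasma-cell and secretory stress genes (0.34), glycolysis and hypoxia (-0.08), circadian clock (-0.04) and stem and progenitor genes (0.19). Socs2, a STAT5 target, was at -3.90, -3.64, -3.64 and 1.97, against 1.07, 1.38 and -0.43 (adjusted p = 0.234, and 0.0213 without LAP B-ALL 4). Egr2 was at 3.67, 3.81, 3.61 and -0.18, against -0.13, -0.15 and -0.19 (adjusted p = 0.11, and 0.0102 without it). Again LAP B-ALL 4 lay among or beyond the LAP/Blnk tumours in both genes.

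Chromosome 19, which carries Blnk, held a share of calls unlike that of other chromosomes. Earlier results of these data had already set this chromosome apart in LAP/Blnk tumours, so its values here are not independent support. Of its 568 genes 151 were lower (26.6%) and 2 higher, while on each other chromosome 0.367% to 3.57% were lower. Its genes lay at a median of -0.07, -0.02, -0.06 and -0.13 relative to the other autosomes in LAP B-ALL, against 0.22, 0.22 and 0.37 in LAP/Blnk tumours (difference -0.34, exact permutation p = 0.0571, the smallest possible, 0.286 adjusted over 20 chromosomes). The groups did not overlap, and the 0 line separated them. Chromosomes 11, 17 and X reached the same exact permutation p, at differences of 0.05, 0.02 and -0.02. On chromosome 19 LAP preB-ALL lay at -0.08, 0.04, -0.06 and -0.04 and Blnk preB-ALL at 0.05, -0.08, 0.06, 0.07 and -0.06. The chromosome 19 difference lay between -0.37 and -0.29 when any 1 of the 7 tumours was left out.

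Along 5 stretches of the chromosome with equal numbers of genes, 42 of 114, 35 of 114, 23 of 113, 21 of 114 and 30 of 113 genes were lower in LAP B-ALL. Median differences in these stretches were -0.52, -0.68, -0.06, -0.23 and -0.24, and Blnk lies in the fourth. Lower genes were thus found along the whole chromosome, and most densely in the first stretch. Men1, which encodes menin, was at -0.90, -0.72, -0.92 and -0.98, against 0.92, 1.29 and 1.39 (-2.08 ± 0.24, adjusted p = 0.0015). Vps37c, of the ESCRT sorting machinery, was at -0.70, -0.60, -0.55 and -0.47, against 1.58, 1.28 and 1.48 (-2.03 ± 0.24, adjusted p = 0.0015). Both were named after their values were seen, and both kept their calls in all 26 alternative settings, as did Kif20b and Kif11 on the same chromosome. Gfra1, Carns1 and Psat1 lie there too and were also lower. Ms4a1 lies on this chromosome as well and went the other way.

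Smaller differences were seen on other chromosomes. Chromosome 12 lay at -0.02, -0.03, -0.02 and -0.03 in LAP B-ALL, against 0.13, 0.12 and -0.04 in LAP/Blnk tumours, and held 20 lower genes and 1 higher, Papola and Frmd6 among the lower. Chromosome 16 held 20 lower genes and 1 higher and, of the 7 tumours, lay highest in LAP/Blnk 3, at 0.08. It lay at 0.08, 0.09 and 0.09 in Blnk preB-ALL 1, 2 and 3. LAP B-ALL 4 was at 0.10 on chromosome 11 and 0.07 on chromosome 9, where LAP B-ALL 1 to 3 were close to 0. Outside chromosome 19 the calls were even in direction, 223 higher and 226 lower.

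**Figure D5:**
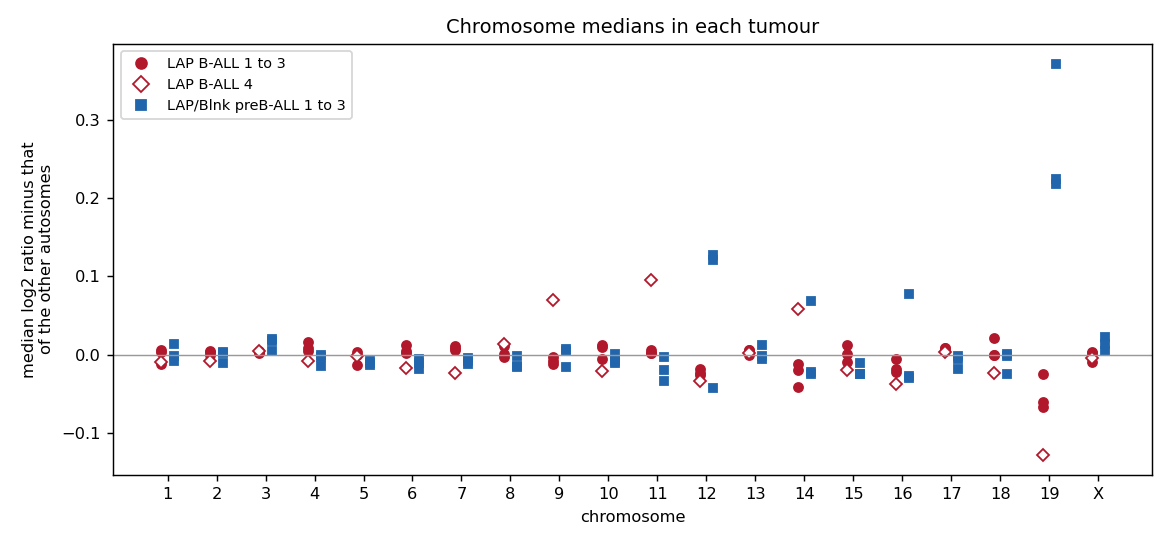
Median log2 ratio of the genes of each chromosome minus that of the other autosomes, 1 point per tumour: LAP B-ALL 1 to 3 as filled circles, LAP B-ALL 4 as an open diamond and LAP/Blnk preB-ALL as squares. Chromosome 19 lies at -0.13 to -0.02 in LAP B-ALL and at 0.22 to 0.37 in LAP/Blnk tumours.

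Sex-linked genes set LAP/Blnk 1 and 2 apart. Xist, the RNA of the silent X chromosome, was at 0.31, 0.56, 0.05 and 0.19 in LAP B-ALL, against -7.49, -6.95 and -0.05 in LAP/Blnk tumours. The Y-linked gene Eif2s3y was at -0.20, -0.15, -0.28 and -0.21, against 3.10, 5.01 and -0.11, and the Y-linked Kdm5d was at 1.21 and 3.56 in LAP/Blnk 1 and 2. None of the 3 genes, which were named after their values were seen, passed between the groups (limma adjusted p of 0.278, 0.361 and 0.507), and LAP/Blnk 3 lay with the LAP B-ALL tumours. The part of sex in the results was not tested.

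LAP preB-ALL shares the transgene and the intact Blnk gene with LAP B-ALL. LAP B-ALL minus LAP preB-ALL gave no call by limma (0%), with 1886 of 17097 genes at an unadjusted p under 0.05. Without LAP B-ALL 4 it gave 5 calls, without Blnk preB-ALL 1 a single call, and without LAP preB-ALL 4 it gave 291. The median SD of a gene was 0.236 within LAP preB-ALL. Both comparisons share the LAP B-ALL tumours, so their values are given side by side. Ms4a1 differed by 3.57 ± 1.74 from LAP preB-ALL and by 7.47 ± 1.88 from LAP/Blnk tumours, and Klf2 by 2.25 ± 0.59 and 3.36 ± 0.64.

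Several genes with a large difference from LAP/Blnk tumours had a small one from LAP preB-ALL. Spsb4 differed by -0.21 ± 0.38 from LAP preB-ALL against -4.45 ± 0.41 from LAP/Blnk tumours, Pcp4l1 by 0.02 ± 0.63 against -4.02 ± 0.68, and Bcl3 by 0.09 ± 0.59 against 2.88 ± 0.64. H2-DMb2 differed by -0.06 ± 0.87 from LAP preB-ALL against 3.75 ± 0.94, and Erg by -0.88 ± 1.05 against -4.55 ± 1.14. Emb differed by -2.77 ± 0.77 from LAP preB-ALL against -3.40 ± 0.83 from LAP/Blnk tumours. None of the differences from LAP preB-ALL passed, and whether they differ from those from LAP/Blnk tumours was not tested.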

How the data were processed

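Per the labels' protocols, 100 ng of total RNA per tumour was labelled with biotin and hybridised to an Affymetrix array. The submitters' processing notes name MAS5 alone, without a version. The deposited log ratios were read as log2, although neither the base nor the array scaling is stated in the sources used here. Each of the 45141 probe sets had a median of 0 over the 16 tumours, so no level, intensity or detection call was kept, and the number of arrays limits the precision.

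A single symbol was held by 28898 probe sets (annotation of 2016). Several were held by 551 and none by 15692. Of those with a single symbol, 28689 matched GRCm38.p6. There were 17097 genes, 7180 of them with several probe sets. The most variable of these, judged about the cell-line mean and the tumour mean with groups ignored, stood for its gene. All 16 tumours were fitted as 4 groups with limma 3.58.1 in R 4.3.3, without a variance trend, two-sided, with Benjamini-Hochberg adjustment over all genes. Single probe sets and chromosome medians were compared with exact permutation tests over 4 against 3 tumours. The limma fit was also tried on simulated normal noise, independent between tumours. That noise holds no outlying tumour such as the library labelled LAP B-ALL 4, so the trial does not cover that feature.

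Named were the 12 largest rises and falls past the threshold with groups that did not overlap (no unnamed transcripts, 29 of the calls, and no receptor segments, 2), the 3 smallest p-values, a panel of B-cell genes, all Cebpb and Blnk probe sets, and from each of 31 lists its called members (up to 6, or the 2 largest differences where fewer than 2 passed). The lists held 655 symbols, of which 572 were measured. Members and lists were chosen with earlier results of these data known. Alternatives left out each tumour, used only 7 tumours, other probe-set rules, other scalings, array weights, other variance models and a replicate block.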

Additional observations from a re-analysis of the deposited data

Results flagged for a closer look

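Among the 4 LAP B-ALL tumours, 1 tumour lay further from the others than Dixon's gap test allows in 23 of the 112 named genes looked at. For independent genes not chosen by their values, chance alone gives about 1 in 20. Many of these genes were chosen by their values and some are near-identical copies, so that rate cannot be set against theirs. In 21 of the 23 genes the tumour apart was the library labelled LAP B-ALL 4. Its log2 ratios in these genes were Cd5l 0.58, Rasgrp1 0.23, Clec4n 0.0081, Pira1 0.64, Erg -0.038, Gfra1 -0.10, Smtnl2 1.22, Carns1 0.83, Vpreb1 0.14, Rag1 2.00, Rag2 2.13, Mycn 3.88, Vpreb2 0.35, Bcl2a1a -0.25, Socs2 1.97, Igfbp4 0.51, Egr2 -0.18, Vegfa 1.23, Sox4 1.13, S100a9 3.67 and S100a8 3.85. LAP B-ALL 2 stood apart in Klf2 (2.82) and Plk2 (3.36). Of the lists, the median of the Bcl2 family (-0.22) and of erythroid cells and platelets (0.12) set LAP B-ALL 4 apart, and that of sterol and fatty acid synthesis (-0.44) LAP B-ALL 3. LAP/Blnk preB-ALL, with 3 tumours, was not tested in this way, so tumours apart in that group were not looked for. The cause was not tested.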

How the results depend on the processing

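Against 602 calls in LAP B-ALL minus LAP/Blnk preB-ALL, array weights gave 4063, with a weight of 0.377 for LAP B-ALL 4 and 1.42 to 2.25 for LAP B-ALL 1 to 3. Leaving out 1 tumour gave 246 to 1980, where 1980 is without LAP B-ALL 4 and 1055 without LAP preB-ALL 4, a tumour outside the comparison. LAP preB-ALL and Blnk preB-ALL tumours were left out, and the lists recounted without LAP B-ALL 4, as choices made after seeing the data. Same-numbered tumours of both groups correlated at 0.11, -0.01 and -0.04 in their deviations, so the numbers were not taken as pairs, and with the replicate block there were 351 calls, 310 of them shared with the 602. For LAP B-ALL minus LAP preB-ALL the count of 0 became 4 with array weights and lay between 0 and 291 with 1 tumour left out. The chromosome 19 difference of -0.34 was -0.80 over the more variable genes alone, a setting that removes genes with little spread. The other settings gave 524 to 814 calls. Of 50 called genes named in the text, 13 kept their call in all 26 alternatives, and none of the 50 changed sign. Where a count moved, the cause was not tested, unless named. With 4 and 3 tumours the exact tests cannot go below 0.0571, ratios without levels allow no filter on dim probe sets, and no batch is given in the sources used here.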

Other observations

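Some genes divided the tumours in other ways than the groups. Mycn, a relative of Myc, was at -0.03, -0.09, -0.13 and 3.88 in LAP B-ALL, against 3.45, 5.55 and -0.37 in LAP/Blnk preB-ALL (adjusted p = 0.593). LAP B-ALL 4 and LAP/Blnk 1 and 2 were therefore over 3 log2 units above the other 4 tumours. Jchain, the joining chain of secreted immunoglobulin, was at -0.18, 0.18, -1.35 and 2.84, against 3.19, -3.79 and -3.74 (adjusted p = 0.666), with LAP B-ALL 4 and LAP/Blnk 1 highest. The clock gene Arntl was at -1.94, -1.98, -2.56 and 1.09 in LAP B-ALL, against -0.01, 0.60 and 1.20 in LAP/Blnk tumours, and Bhlhe40, which represses clock genes, was at 1.36, 0.50, 0.68 and -0.89, against -0.50, -0.96 and -1.45. Without LAP B-ALL 4 their differences were -2.76 and 1.82 (adjusted p of 0.00076 and 0.00505), against -1.95 and 1.38 with it (adjusted p of 0.0972 and 0.0775).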
